A study of Mus musculus with 18 samples.

Results

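The data describe how gene expression in the heart of wild-type rats changed between 1 and 20 days of age, from just after birth to about weaning. The comparison took all arrays that the labels describe as wild type at day 20 against all those described as wild type at day 1, with 3 animals at each age and 6 of the 18 arrays of the series. It was read across all 31042 probe sets that are not array controls. The wild-type animals were untreated and carried no named allele, so age was the only factor that the labels give between the groups. The strain in which the mutation of the series arose was Sprague-Dawley and was crossed with inbred Fisher 344 rats, and the labels give no other origin for the wild-type animals and do not say which animals were littermates. The other arrays held wild-type hearts at day 49 and hearts of homozygotes for the titin splicing mutation of the series, at day 1, day 20 and day 49, with 3 animals in each group. All samples carry 1 entry in the genotype field, so wild type and mutant were read from the source and description fields. The series text has ventricular extracts of single animals and the titles have whole heart, so the share of atrial tissue is not settled by the labels. The organism field reads mouse, but strains, array and descriptions are those of rat.

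After birth the mammalian heart leaves a phase of growth by cell division, and its muscle cells go on to grow by enlargement. At the same time the muscle turns from glucose and lactate towards fatty acids as its main fuel, and mitochondria, T-tubules and the calcium stores expand. Fetal forms of sarcomere proteins give way to adult forms, a change in which rising thyroid hormone is known to take part. The results are ordered by these roles.

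The 6 arrays were alike in overall level. Medians of the log2 levels ran from 5.42 to 5.47. Arrays of 1 age correlated at 0.989 to 0.995 and arrays of different ages at 0.959 to 0.966. In a principal component analysis of the 6 arrays the first component held 76.1% of the variance and separated the ages. The gap between the 3′ and 5′ Gapdh probe sets, a measure of RNA integrity, was 0.94 ± 0.12 (SD, n = 3) at day 1 and 0.58 ± 0.29 at day 20, where array 2 stood at 0.90. Array 2 was also the 1 array of 3 with a high Xist level at each age. The heart muscle markers were present on all 6 arrays, with Tnnt2, cardiac troponin T, at 13.46 to 13.63 and Myl3, the ventricular light chain, at 13.35 to 13.56. In bulk tissue, fewer cells of a type and less RNA per cell cannot be told apart, which holds for every value below.

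A probe set was called when its adjusted p in limma's moderated test was below 0.05. By this rule 8737 of the 31042 probe sets changed (28.1%), with 3907 rising (12.6%) and 4830 falling (15.6%). At 2-fold or more, 725 were higher (2.34%) and 946 lower (3.05%), and at 8-fold or more 32 were higher and 62 lower. The called probe sets with a single gene symbol belonged to 5722 genes. The 3 arrays of day 20 did not overlap the 3 of day 1 in 13409 probe sets (43.2%). When each of 14217 genes was read by its brightest probe set, 14.3% rose and 21.8% fell, and the median change was 0.01 on the log2 scale. The gene lists below, each gene read by that probe set, are to be read against these shares.

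The largest rise on the RMA scale was that of Rpl3l, a muscle form of the ribosomal protein L3. Its log2 levels were 4.07, 3.86 and 3.87 on day 1 arrays 1 to 3 and 9.89, 10.06 and 10.10 on day 20 arrays 1 to 3. The day 1 arrays were all low and the day 20 arrays all high. The values come with no detection call, so for a gene this low at day 1 the fold describes the RMA scale and may understate the change. The rise was 6.08 ± 0.17 (SE; 67.7-fold; adjusted p = 5.91e-14), and the wild-type mean at day 49 was 10.88 ± 0.15 (SD, n = 3). Akr1c15, an aldo-keto reductase, went from 4.57, 5.34 and 5.25 to 10.58, 10.45 and 10.37, a rise of 5.41 ± 0.14. Acss1, the mitochondrial enzyme that activates acetate, went from 5.64, 5.40 and 4.57 to 10.40, 10.79 and 10.39, a rise of 5.33 ± 0.26. For both genes the day 20 arrays lay within a narrow band, and the day 1 arrays spread more widely at low level. Others of the 15 largest rises had roles in muscle. Rbfox1, a muscle and neuron splicing regulator, rose by 4.74 ± 0.11 in its most changed probe set and by 4.19 and 3.54 in its next ones, while its 2 dimmest probe sets were not called. Asph, whose locus also encodes the junctin of the calcium release complex, rose by 4.0 ± 0.11, and Ckmt2, the mitochondrial creatine kinase of striated muscle, by 4.08 ± 0.18. Itga7, the laminin-binding integrin of muscle, rose by 3.5 ± 0.18, and Thrb, a thyroid hormone receptor, by 3.29 ± 0.20. Tuba8, an alpha-tubulin, rose by 4.41 ± 0.23, Gda, a guanine deaminase, by 3.77 ± 0.30, Scn7a, a sodium channel, by 3.38 ± 0.28 and Steap4, a metalloreductase, by 3.29 ± 0.15. The uncharacterized LOC100909396 rose by 4.24 ± 0.24 and 2310002L09Rikl by 3.98 ± 0.15 in one of its probe sets.

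Alox15, an arachidonate lipoxygenase, stood apart from the other large rises in its later level. It was at 7.95, 7.09 and 7.0 at day 1 and at 10.90, 10.65 and 10.57 at day 20, a rise of 3.36 ± 0.48. At day 49 its wild-type mean was 6.42 ± 0.38, below every array of day 1 and day 20. The change of Alox15 from day 20 to day 49 was -4.29 ± 0.48, while Rpl3l, Akr1c15, Acss1, Ckmt2 and Asph had day 49 means above their day 20 means.

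Among the 15 largest falls were many genes of cell division. Ect2, the exchange factor that sets the cleavage furrow, went from 8.66, 8.74 and 9.21 to 4.0, 4.44 and 3.93, a fall of 26.9-fold (-4.75 ± 0.21; adjusted p = 9.83e-12). Mki67, the proliferation antigen, went from 9.56, 9.21 and 9.79 to 5.12, 5.28 and 5.15. Its change was -4.34 ± 0.19, and at day 49 it stood at 5.11 ± 0.35. Of the other largest falls, Pclaf, a PCNA partner, changed by -4.33 ± 0.16, the cyclin Ccnb2 by -4.29 ± 0.22 and the kinase subunit Cks2 by -4.24 ± 0.22. Prc1, which bundles the midzone of the spindle, changed by -4.18 ± 0.22, the phosphatase Cdkn3 by -4.17 ± 0.29, the kinetochore protein Cenpf by -4.12 ± 0.18, the cyclin Ccna2 by -4.04 ± 0.17 and the mitotic kinesin Kif23 by -3.98 ± 0.18. Other genes among the 15 had no textbook role in the cell cycle. Slc16a12, a carrier of the monocarboxylate family, went from 9.79, 9.55 and 9.96 to 5.13, 5.13 and 5.11, a change of -4.64 ± 0.14. Cdhr1, a cadherin-related protein, changed by -4.44 ± 0.16, the kinesin-like Kif26b by -4.51 ± 0.18 in its most changed probe set and -2.7 ± 0.19 in its brightest, Bex4 by -4.0 ± 0.18 and the light chain Myl4 by -4.16 ± 0.50.

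**Figure D1:**
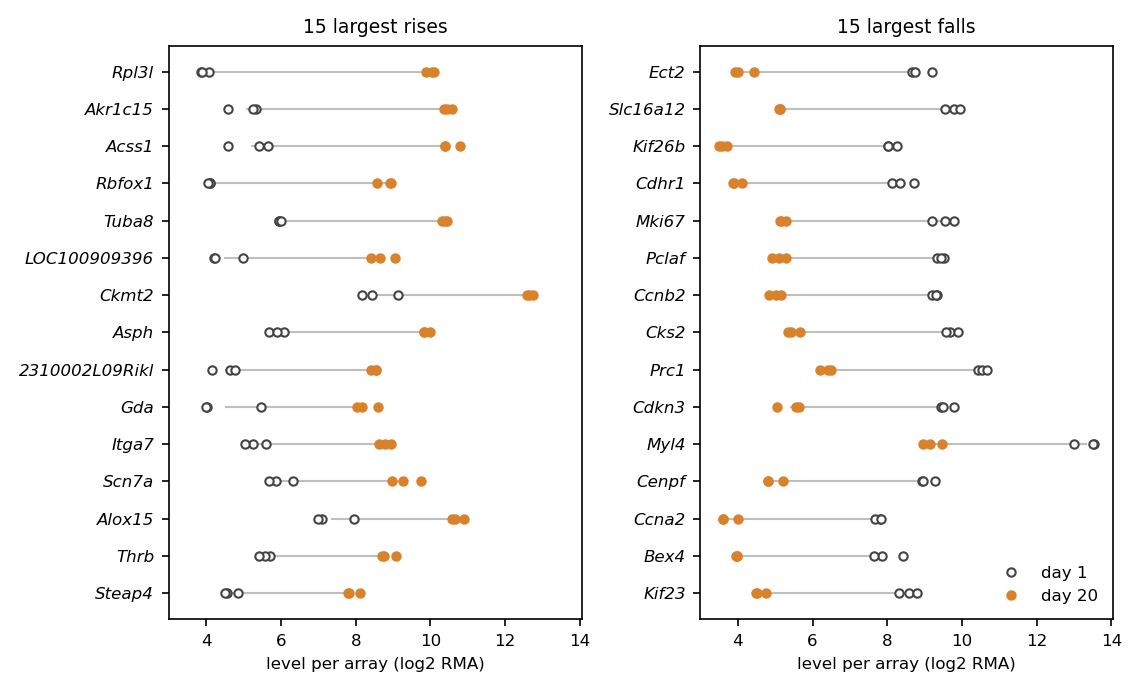
Log2 RMA levels on the 3 day 1 and 3 day 20 wild-type arrays for the 15 largest rises (left) and 15 largest falls (right), 1 point per array. Rpl3l moves from 3.86 to 4.07 at day 1 to 9.89 to 10.10 at day 20, and Ect2 from 8.66 to 9.21 to 3.93 to 4.44, with no overlap between ages for any gene shown because non-overlap was part of the choice.

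The contractile filament changed most in its fetal forms. Of 24 measured contractile genes, 8 rose and 4 fell, and the median change was 0.04. Tnni1, the slow skeletal troponin I of the fetal heart, went from 13.02, 13.26 and 13.04 at day 1 to 9.42, 9.19 and 8.77 at day 20. Its fall was 15.8-fold (-3.98 ± 0.19; adjusted p = 2.69e-11), a second probe set changed by -3.36 ± 0.20, and the day 49 mean was 6.14 ± 0.30. Tnni3, the cardiac troponin I, went from 13.28, 13.32 and 13.38 to 13.81, 13.75 and 13.85, a rise of 0.47 ± 0.07. For both troponin I genes the arrays of the ages did not overlap, in opposite directions, and the change on the RMA scale was larger for the fetal form. Myl4, the embryonic and atrial essential light chain, stood at 13.55, 13.01 and 13.51 and then at 9.45, 8.97 and 9.15, with a day 49 mean of 5.96 ± 0.16. Its ventricular partner Myl3 was not called, with a change of 0.14 ± 0.07.

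Myh7, the slow beta-myosin heavy chain, went from 14.00, 13.88 and 13.93 to 13.39, 12.53 and 13.39, a change of -0.83 ± 0.19 (adjusted p = 0.00325). At day 49 it stood at 10.97 ± 0.29, so on the log2 scale most of the difference from day 1 lay after day 20. Its dimmer probe set read 8.01, 7.91 and 8.49 at day 1 and 9.80, 6.6 and 9.68 at day 20, was not called, and was low on day 20 array 2. Myh6, the fast alpha-myosin heavy chain of the adult rodent heart, went from 13.61, 13.29 and 13.69 to 13.93, 13.84 and 13.88 in its brightest probe set, a rise of 0.35 ± 0.12 (adjusted p = 0.0345). That call ended with the Gapdh gap as a covariate (0.18, adjusted p = 0.305) and without day 1 array 2 (adjusted p = 0.186) or day 20 array 1, 2 or 3 (0.0987, 0.0565 and 0.0804). A dimmer Myh6 probe set read 7.95, 7.47 and 8.78 at day 1 and 11.87, 9.82 and 11.81 at day 20, a rise of 3.10 ± 0.68. Myosin heavy chains are close paralogs, so how far each probe set reads a single one of them is uncertain.

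Structural proteins of the sarcomere differed in size and direction, and 2 of the contractile genes rose by 2-fold or more. Myom2, an M-band protein of adult fast fibres, went from 9.76, 9.44 and 9.36 to 12.63, 12.74 and 12.50, a rise of 3.10 ± 0.11. Tcap, the telethonin of the Z-disc, went from 9.38, 9.06 and 9.19 to 11.53, 11.57 and 11.61, a rise of 2.36 ± 0.14, and stood at 12.78 ± 0.21 at day 49. Mylk3, the cardiac myosin light chain kinase, rose by 0.93 ± 0.10, Lmod2, which lengthens thin filaments, by 0.65 ± 0.13, and Myoz2, a Z-disc partner of calcineurin, by 0.42. Another Z-disc gene, Ldb3, fell by 0.34 in its brightest probe set, a call that ended without day 1 array 3 (adjusted p = 0.0662) or day 20 array 3 (0.0619), and a dimmer Ldb3 probe set rose by 0.59. Titin itself was not called, with Ttn at 0.07 ± 0.10, nor were Tnnt2 at 0.10 ± 0.07, Myl2 at -0.04 ± 0.08 and Acta1 at -0.15 ± 0.12. Of 12 embryonic, smooth and skeletal muscle filament genes 5 fell and 1 rose, the falls including the smooth muscle calponin Cnn1 at -2.75 ± 0.29, the skeletal light chain Myl1 at -1.46 ± 0.38 and the slow skeletal troponin T Tnnt1 at -1.25 ± 0.24. The 5 falls were 3 without day 20 array 3, and the 1 rise was 0 without day 1 array 1 or 3 or day 20 array 2. With the most variable probe set of each gene in place of the brightest, 2 contractile genes fell rather than 4.

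Paired forms of the same protein were followed across the sarcomere, energy metabolism and translation. Of 17 pairs of an early or general form and an adult or muscle form, 15 had both members measured. The early form fell in 14 of these and rose in 1, and the adult form rose in 11 and fell in 0. In 10 pairs both held. Over all genes, by brightest probe set, 21.8% fell and 14.3% rose. The pairs, like the lists, were chosen with earlier results of these data known, so these counts describe the chosen pairs only. The pair with the widest split on the RMA scale was Rpl3, the general ribosomal protein L3, at -0.69 ± 0.10 and its muscle form Rpl3l at 6.08. The glucose transporter Slc2a1 of the fetal heart went from 9.01, 9.48 and 9.34 to 7.36, 7.49 and 7.61, a change of -1.80 ± 0.17. The insulin-responsive Slc2a4 went from 7.78, 7.95 and 7.76 to 10.26, 10.29 and 10.24, a rise of 2.44 ± 0.13, with a dimmer probe set at 0.56 ± 0.14. Arrays of the ages were apart for both transporters, in opposite directions. Phosphoglycerate mutase showed the same split, with brain-type Pgam1 at -0.73 ± 0.09 and muscle Pgam2 at 2.28 ± 0.14. So did creatine kinase, with Ckb at -1.27 ± 0.14 and Ckm at 0.35 ± 0.08. Of the cytochrome oxidase subunits, liver-type Cox6a1 was at -0.76 ± 0.10 against heart-type Cox6a2 at 0.50 ± 0.09, and Cox8a was at -0.66 ± 0.09 against Cox8b at 0.53 ± 0.09. Elongation factor Eef1a1 was at -0.58 ± 0.09 and its muscle and neuron form Eef1a2 at 0.70 ± 0.16. The adenine nucleotide carriers moved less, Slc25a5 by -0.29 ± 0.10 and Slc25a4 by 0.26 ± 0.08. These calls ended without any 1 of 5 arrays for Slc25a5 (adjusted p from 0.0553 to 0.101) and of 4 for Slc25a4 (0.0534 to 0.107). The exceptions were glycogen phosphorylase, whose brain form Pygb rose with the muscle form Pygm (0.77 ± 0.10 and 0.79 ± 0.11), and adult forms that were not called. These were Myl3, Hk2 at 0.34 ± 0.16, Cpt1b at 0.13 ± 0.16 and Eno3 at 0.37 ± 0.18, whose early partners Myl4, Hk1 (-0.58 ± 0.08), Cpt1a and Eno1 (-0.60 ± 0.12) fell. Eno3 was called with the 6 compared arrays fitted alone (adjusted p = 0.0411) and Myl3 with an intensity trend in the variance (0.0421).

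**Figure D2:**
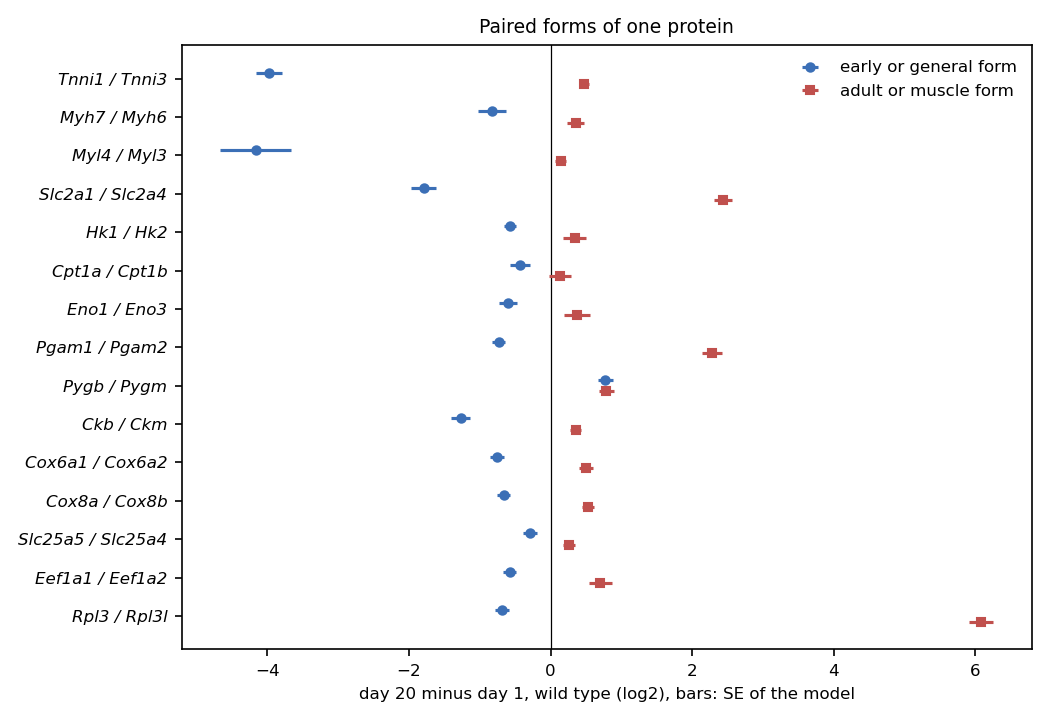
Change in log2 level from day 1 to day 20 in wild-type hearts (horizontal axis) for 15 pairs of protein forms, 1 pair per line, with circles for the early or general form, squares for the adult or muscle form and bars for the SE of the model. Circles lie left of 0 except Pygb at 0.77, all squares lie right of 0, and Rpl3l at 6.08 lies farthest right.

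Of 24 genes that move and store calcium, 11 rose and 6 fell. Genes of the sarcoplasmic reticulum were among both. Hrc, the histidine-rich calcium-binding protein of the store, went from 9.60, 9.59 and 9.37 to 11.70, 11.63 and 11.50, a rise of 2.09 ± 0.12. Jph1, a junctophilin that ties T-tubule to store, rose by 1.02 ± 0.11, the release channel Ryr2 by 0.68 ± 0.08 and Jph2 by 0.47.  The T-type calcium channels of the immature heart fell, Cacna1h from 8.82, 9.06 and 8.72 to 6.21, 6.18 and 5.54 (-2.89 ± 0.22) and Cacna1g from 8.78, 8.06 and 8.36 to 6.79, 6.71 and 6.95 (-1.58 ± 0.21). The sodium-calcium exchanger Slc8a1 went from 11.90, 12.06 and 12.05 to 10.64, 10.80 and 10.60, a change of -1.32 ± 0.08. For each of these 3 genes every day 20 array lay below every day 1 array. Of the calsequestrins, which bind calcium in the store, skeletal Casq1 changed by -0.75 ± 0.15 and cardiac Casq2 by -0.30 ± 0.09. The Casq2 call ended with the Gapdh gap as a covariate (adjusted p = 0.0577) and without day 1 array 3 (0.0501) or day 20 array 1 or 3 (0.0543 and 0.0539). Sarcolipin, Sln, was not called at 1.24 ± 0.92. Fitted on the 6 compared arrays alone, Sln was called (adjusted p = 9.54e-05). The 11 rises were 7 without day 20 array 1 or 3, and 6 with the Gapdh gap as a covariate.

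Of 24 ion channels and connexins, 11 rose and 5 fell, with several subunits of repolarizing potassium channels among the rises. Kcnip2, the subunit that enables the transient outward current, went from 10.07, 10.20 and 9.97 to 11.60, 11.62 and 11.63, a rise of 1.54 ± 0.22, and a dimmer probe set rose by 2.7 ± 0.31. The channels of that current rose with it, Kcnd3 by 1.16 ± 0.16 and Kcnd2 by 0.81 ± 0.17, as did Kcna5 by 1.67 ± 0.34. Kcna5 was at 5.98, 5.95 and 7.32 on the day 20 arrays, with array 3 the highest, and at 4.6 to 4.91 at day 1. The subunits of the ATP-sensitive channel rose, Kcnj11 by 0.70 ± 0.13 and Kcnj8 by 0.95 ± 0.21. Kcnd2 reached 6.42 ± 0.16 at day 49 from a mean of 5.33 at day 20. The falls held Gja5, connexin 40 of the atria and conduction system, at -2.06 ± 0.17, Gjc1, connexin 45 of the early heart, at -0.59 ± 0.12, Kcnh2 at -0.55 ± 0.11 and Kcnq1 at -0.43 ± 0.10. The fall of Kcne1, the partner of Kcnq1, lost its call with a replicate block (adjusted p = 0.0518) and without each of 5 arrays (0.0854 to 0.203). Not called were Gja1, the main ventricular connexin, at -0.10 ± 0.11 in its brightest probe set, the pacemaker channel Hcn4 at 0.28 ± 0.13, and the sodium channel subunit Scn4b at 0.83 ± 0.31 (adjusted p = 0.0541). A dimmer Gja1 probe set rose by 2.08 ± 0.45. Scn4b stood at 4.50 at day 1, 5.33 at day 20 and 7.95 ± 0.56 at day 49. Without day 20 array 3 its adjusted p was 0.0419. It was also called with the 6 compared arrays fitted alone, 1 probe set per gene or an intensity trend in the variance. The same held with high against low Xist or the Gapdh gap as a covariate (adjusted p in these runs 0.0165 to 0.0445).

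Receptors and partners of the autonomic system had 5 rises and 1 fall among 23 genes. The alpha-1 adrenergic receptors Adra1d and Adra1b rose by 1.65 ± 0.13 and 1.44 ± 0.13. Akap6, the anchoring protein that holds protein kinase A at the nuclear envelope and release channel, rose by 2.11 ± 0.26, from 5.58, 5.15 and 5.22 to 7.78, 6.93 and 7.59. The inhibitory G protein subunit Gnai2 changed by -0.62 ± 0.10. The muscarinic receptor Chrm2 was not called at 0.16 ± 0.13. Of 27 genes of the intercalated disc and costamere, 8 rose and 8 fell. Besides Itga7, the rises included Ank2, the ankyrin that places the exchanger and pump, at 1.40 ± 0.11 and the sarcoglycan Sgcb at 0.78 ± 0.09. The falls included the fibronectin receptor Itga5 at -1.16 ± 0.19, Parva at -1.10 ± 0.11 and Ilk at -0.87, both of the integrin-linked kinase complex, and the N-cadherin Cdh2 at -0.59 ± 0.11. With the Gapdh gap as a covariate 5 of these 27 genes fell rather than 8.

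Fatty acid oxidation, the tricarboxylic acid cycle and the respiratory complexes held mostly rises. Of 45 measured genes of fatty acid uptake and oxidation 27 rose and 6 fell, with a median change of 0.72. Among genes of fatty acid entry, Lpl, the lipase of the vessel wall, went from 10.62, 10.23 and 10.59 to 11.90, 11.98 and 12.08 (1.5 ± 0.14), and the transporter Cd36 from 10.48, 10.28 and 10.50 to 11.85, 11.57 and 11.96 (1.37 ± 0.19). Plin5, which coats lipid droplets beside mitochondria, rose by 1.80 ± 0.24. Within mitochondria Acadm, the medium-chain dehydrogenase, went from 10.73, 10.63 and 10.82 to 12.21, 12.22 and 12.22, a rise of 1.49 ± 0.10. Eci1, an enoyl-CoA isomerase, rose by 1.49 ± 0.12. The mitochondrial uncoupling protein Ucp3 rose by 2.10 ± 0.30 from 6.10, 6.11 and 6.21 to 7.29, 8.80 and 8.64, and at day 49 its mean was 6.75 ± 0.37. The coactivator Ppargc1a, which drives mitochondrial biogenesis, rose by 0.94 ± 0.12. The trifunctional protein subunit Hadha was not called at 0.45 ± 0.19. The largest fall was that of Acot1 at -1.68. Its call ended with the 6 compared arrays fitted alone (adjusted p = 0.0668) and without day 1 array 1 or 3 (0.0707 and 0.0767). The other falls included the acyl-CoA synthetases Acsl4 at -1.23 ± 0.19 and Acsl3 at -1.10 ± 0.13. They also included the ketone body enzyme Bdh1 at -0.64 ± 0.13, which stood at 8.26 ± 0.07 at day 49 against 5.48 at day 20. Cpt1a, the liver form of the gate into mitochondria, changed by -0.43 ± 0.14 in its brightest probe set and by 0.67 ± 0.24 in a dimmer one, so its direction depends on the probe set. The first call ended with the Gapdh gap as a covariate (adjusted p = 0.0599) and without day 1 array 1 or 3 or any 1 of the day 20 arrays (0.051 to 0.132). The muscle form Cpt1b was not called, and its change of 0.13 turned to -0.04 with the Gapdh gap as a covariate and to -0.06 without day 1 array 2.

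The tricarboxylic acid cycle and pyruvate oxidation held 24 rises and 0 falls among 29 measured genes, with a median change of 0.58. Got1, the aspartate aminotransferase of the malate shuttle, went from 8.13, 8.78 and 8.37 to 10.36, 9.96 and 10.09, a rise of 1.71 ± 0.14. Ogdh, a subunit of the 2-oxoglutarate dehydrogenase, rose by 0.89 ± 0.10 and the pyruvate carrier Mpc1 by 0.87 ± 0.10. The pyruvate dehydrogenase kinases Pdk1 and Pdk2, which restrain the entry of pyruvate, rose by 1.26 ± 0.13 and 1.13 ± 0.09. Pdk4 spread over 10.12, 10.64 and 11.48 at day 20 against 9.87 to 9.98 at day 1, and was not called (0.82 ± 0.38, adjusted p = 0.118), though it was without day 20 array 1 (1.14, adjusted p = 0.0479). A dimmer Pdk4 probe set rose by 1.42 ± 0.32. Among 44 subunits of the respiratory complexes 30 rose and 2 fell, with a smaller median of 0.36. Cox7a1, the heart subunit of cytochrome oxidase, went from 6.48, 6.72 and 6.77 to 7.78, 8.18 and 7.97 (1.32 ± 0.18) and stood at 10.08 ± 0.30 at day 49. Complex I subunits rose, Ndufv2 by 0.92 ± 0.09 and Ndufb10 by 0.78 ± 0.10. The 2 falls were the liver-type Cox6a1 and Cox8a, and Atp5f1b of the ATP synthase was not called at 0.08 ± 0.08. These 3 lists kept within 1.5 times of their counts of rises under every alternative run.

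Glycolysis was divided, with 9 rises and 10 falls among 30. The lactate exporter Slc16a3 went from 8.58, 9.44 and 8.82 to 5.88, 6.06 and 6.07, a change of -2.94 ± 0.18. The brain aldolase Aldoc went from 9.48, 9.18 and 9.16 to 6.70, 6.73 and 6.76 (-2.54 ± 0.11). Phosphofructokinase changed by form, with platelet Pfkp at -1.42 ± 0.14, liver Pfkl at -1.35 ± 0.17 and muscle Pfkm at 1.00 ± 0.11. Lactate dehydrogenase Ldha was not called at 0.08 ± 0.11. In creatine metabolism 4 of 10 rose and 4 fell. The rise of Ckmt2, from 8.18, 9.12 and 8.43 to 12.63, 12.75 and 12.59, stood beside falls of the creatine-making enzymes Gatm at -0.79 ± 0.17 and Gamt at -0.57 ± 0.12. The 4 rises were 2 without day 1 array 1 or day 20 array 1 or 3, with the Gapdh gap as a covariate, and with the 6 compared arrays fitted alone. Antioxidant enzymes rose in 9 of 25 and fell in 3, with the extracellular superoxide dismutase Sod3 at 1.71 ± 0.24, Prdx5 of mitochondria at 1.07 ± 0.12 and the mitochondrial Sod2 at 0.68. The 3 falls were 1 without day 20 array 2 and 1 with the Gapdh gap as a covariate.

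**Figure D3:**
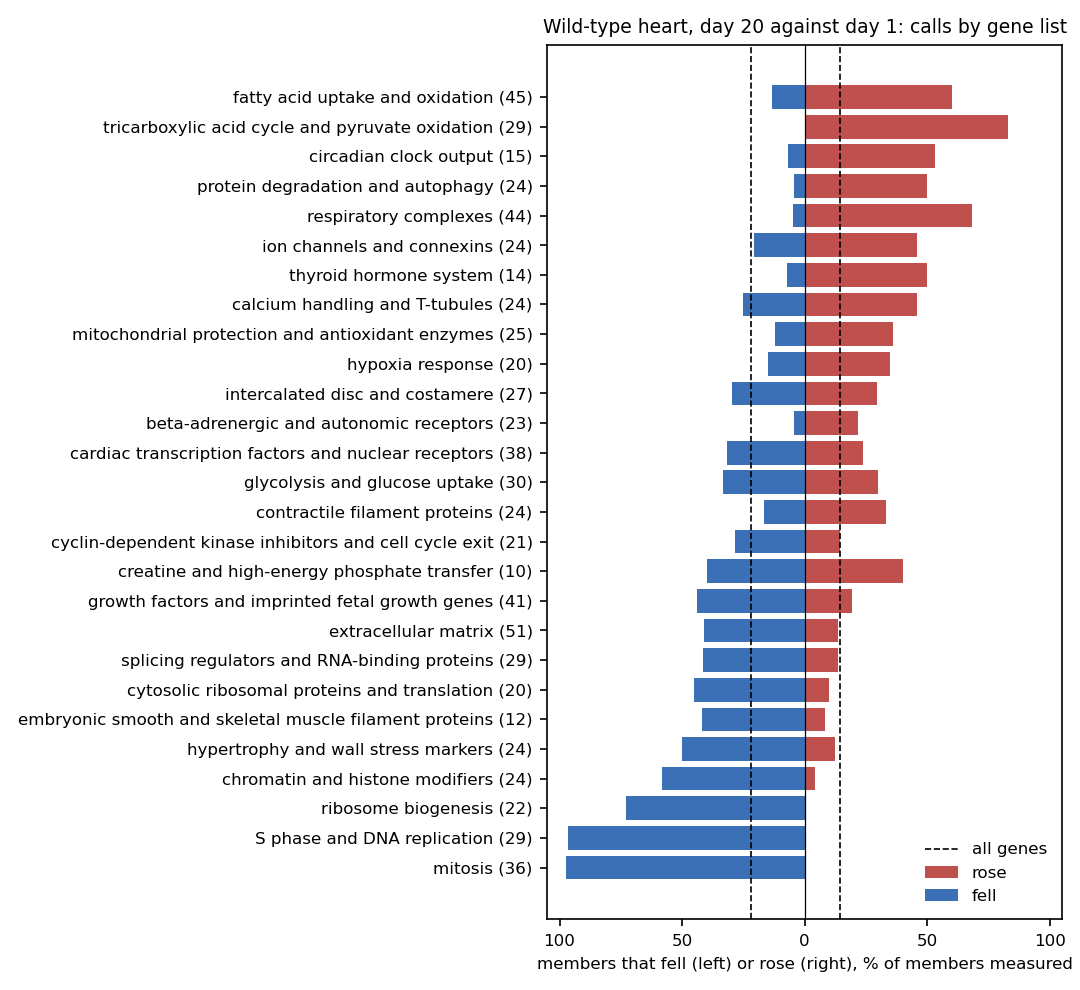
Share of the measured members of 27 gene lists that fell (bars to the left) or rose (bars to the right), in percent, with the number measured in brackets, lists ordered by median change and dashed lines for all genes (21.8% fell, 14.3% rose). The mitosis and S phase lists have bars to the left only, and the tricarboxylic acid cycle a bar to the right only.

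Nearly every gene of cell division fell. Of 36 measured genes of mitosis 35 fell and 0 rose, with a median change of -2.96, and of 29 genes of S phase and DNA replication 28 fell and 0 rose, with a median of -1.90. The members not called were the centromere histone Cenpa, dim at 3.5 to 3.87 and -0.12 ± 0.09, and the thymidylate synthase Tyms at -0.40 ± 0.16 (adjusted p = 0.0666). Tyms was called without day 1 array 2 (adjusted p = 0.0479) and under a replicate block (0.0362). It was also called with the 6 compared arrays fitted alone (0.0392) and with the Gapdh gap as a covariate (0.0232). Among replication genes the helicase subunit Mcm6 went from 9.49, 9.22 and 9.52 to 6.21, 6.20 and 6.43 (-3.13 ± 0.18), and Uhrf1, which carries DNA methylation through replication, from 7.02, 6.77 and 7.38 to 4.01, 4.19 and 3.96 (-3.01 ± 0.20). Gins1 changed by -2.41 ± 0.16. By day 20 the mitotic genes lay low on all 3 arrays, and their summed level on the linear scale, given as log2, was 13.83 to 14.14 at day 1 and 11.08 to 11.17 at day 20. From day 20 to day 49 limma called 0 of the 36 mitosis genes, where 9.58% of all probe sets were called and, by brightest probe set, 4.53% of all genes were higher and 7.62% lower. With only probe sets of a mean level of at least 6, the falls were 23 of the mitosis genes, since fewer of them were tested.

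A list of cell cycle inhibitors and genes tied to cell cycle exit, which also holds D-type cyclins, had 3 rises and 6 falls among 21 genes. Cdkn1c, the imprinted inhibitor p57, went from 9.19, 10.21 and 9.06 to 6.51, 7.05 and 6.86 (-2.68 ± 0.25). The pocket protein Rbl1 changed by -2.08 ± 0.23, and the INK4 inhibitors Cdkn2d and Cdkn2c by -1.66 ± 0.14 and -1.46 ± 0.17. The related pocket protein Rbl2 rose by 0.67 ± 0.15 and Gadd45a by 0.64 ± 0.13.

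**Figure D4:**
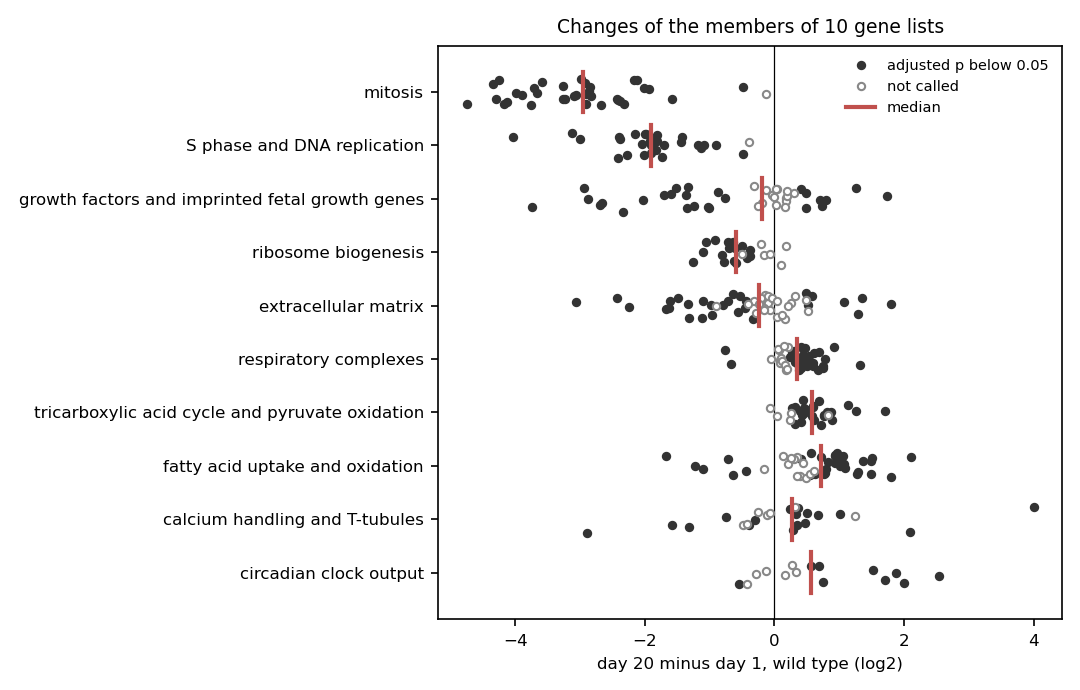
Change in log2 level from day 1 to day 20 of each measured member of 10 gene lists, 1 point per gene, filled where called and open where not, with a vertical line at each list's median. The medians run from -2.96 for mitosis to 0.72 for fatty acid uptake and oxidation, and the point farthest right is Asph at 4.0.

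Fetal growth genes included many large falls. Of 41 growth factors and imprinted growth genes 18 fell, 16 of them by 2-fold or more, and 8 rose. Igf2, the fetal insulin-like growth factor, went from 12.47, 12.37 and 12.19 to 10.30, 10.32 and 10.31 (-2.03 ± 0.20), and stood at 8.55 ± 0.44 at day 49. H19, the noncoding RNA of the same imprinted locus, went from 12.27, 12.16 and 11.97 to 9.18, 9.26 and 9.15 (-2.93 ± 0.19), with a day 49 mean of 6.97 ± 0.40. The arrays of each age were close together for both genes, and the day 49 means lay lower again. Mest, another imprinted gene, went from 11.38, 11.45 and 11.03 to 7.53, 7.62 and 7.47 (-3.74 ± 0.26). Plagl1, an imprinted zinc finger factor, changed by -2.87 ± 0.18, Igf2bp3, which binds Igf2 mRNA, by -2.66 ± 0.12 and Nnat by -2.34 ± 0.27. Among the rises were Fgf12 at 1.74 ± 0.33, Fgf16 at 1.27 ± 0.14 and Vegfa, the vascular growth factor, at 0.79 ± 0.14. Igfbp3 was not called at 0.30 ± 0.19.

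The extracellular matrix had 21 falls among 51 genes (41.2%, against 21.8% of all genes). Its 7 rises (13.7%) were near the 14.3% of all genes. The falls included proteins of the embryonic matrix. Tenascin Tnc went from 8.03, 7.06 and 8.03 to 4.6, 4.71 and 4.64 (-3.06 ± 0.34), osteopontin Spp1 changed by -2.42 ± 0.22, and Fbn2, the fetal fibrillin, went from 9.11, 9.23 and 8.39 to 6.72, 6.46 and 6.80 (-2.25 ± 0.19). Versican Vcan changed by -1.63 ± 0.24, the microfibril protein Mfap2 by -1.61 ± 0.21 and Ccn2, the connective tissue growth factor, by -1.67 ± 0.31. The rises included the small proteoglycan decorin Dcn, from 10.90, 10.90 and 10.80 to 12.10, 12.35 and 12.23 (1.36 ± 0.10), Mfap5 at 1.80 ± 0.21, the basement membrane collagen Col15a1 at 1.29 ± 0.11 and the protease inhibitor Timp4 at 1.08 ± 0.28. The crosslinking enzyme Lox was not called at -0.31 ± 0.22 in its brightest probe set, and a dimmer one changed by -0.69 ± 0.22.

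Of 24 markers of hypertrophy and wall stress 12 fell and 3 rose. Nppa, the atrial natriuretic peptide that the fetal ventricle also makes, went from 13.40, 13.01 and 13.60 to 12.33, 11.71 and 12.26 (-1.24 ± 0.33). Nppb, the brain natriuretic peptide, went from 12.15, 12.59 and 12.27 to 11.51, 10.76 and 11.97 (-0.92 ± 0.24). Tnfrsf12a, the receptor of TWEAK, changed by -2.49 ± 0.22, and the stress factor Atf3 by -1.53 ± 0.32, where day 1 array 2 was the highest at 7.54 against 5.94 and 6.09. The rises were the titin-associated Ankrd23 at 1.16 ± 0.24, Fhl2 at 0.93 ± 0.10 and desmin, Des, at 0.62. Ankrd1 was not called at 0.07 ± 0.14.

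Of 38 transcription factors and nuclear receptors 9 rose and 12 fell. Thrb went from 5.71, 5.56 and 5.40 to 8.77, 9.09 and 8.69. Klf9, which thyroid hormone and glucocorticoids induce, went from 7.57, 8.36 and 7.66 to 9.84, 10.21 and 10.29 (2.25 ± 0.23). The mineralocorticoid receptor Nr3c2 rose by 2.00 ± 0.16 and the retinoid receptor Rxrg by 1.76 ± 0.22. Sox4 changed by -1.98 ± 0.20, the ventricular Irx4 by -1.97 ± 0.20, the Notch target Hey2 by -1.94 ± 0.17 and Gata4 by -0.74 ± 0.14. In the thyroid hormone system 7 of 14 rose and 1 fell. The alpha receptor Thra changed by -0.46 ± 0.11, against the rise of the beta receptor, and the hormone-binding Crym and the corepressor Hr rose by 1.48 ± 0.25 and 0.69 ± 0.15. The activating deiodinase Dio2 was not called and lay at 3.61 to 4.09.

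Of 15 genes of the circadian clock and its output 8 rose, 1 fell and 6 were not called. Nr1d2 went from 7.25, 7.70 and 6.88 to 9.97, 9.77 and 9.70 (2.53 ± 0.17), Nr1d1 from 4.72, 5.49 and 5.67 to 7.28, 7.70 and 6.91 (2.00 ± 0.23) and Dbp from 6.30, 5.77 and 6.21 to 8.21, 7.98 and 7.73 (1.88 ± 0.15). All 3 encode factors under direct control of the clock. Bhlhe40 rose by 1.71 ± 0.22 and Per3 by 1.53 ± 0.19. Bmal1, their driver, was not called at -0.43 ± 0.20. The 1 fall, Cry1 at -0.55 ± 0.20, lost its call with a replicate block (adjusted p = 0.0538), with the Gapdh gap as a covariate (0.0951) and without each of 5 arrays (0.0715 to 0.202). The labels give no hour of tissue collection, so its part in these differences was not tested.

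Lists of ribosome making and RNA processing held more falls than rises. Of 22 genes of ribosome biogenesis 16 fell and 0 rose, with a median of -0.60. Myc, which drives ribosome making, went from 7.77, 8.21 and 7.31 to 6.49, 6.38 and 6.65 (-1.26 ± 0.20), and the small nucleolar proteins Nop58 and Gar1 changed by -1.10 ± 0.11 and -1.06 ± 0.13. Of 20 ribosomal and translation proteins 9 fell and 2 rose, the rises being the muscle forms Rpl3l and Eef1a2. Rpl22 changed by -0.51 ± 0.09, and Rps6 was not called at -0.21 ± 0.08. Rps6 was called as a fall with median centring, a mean level of at least 6 or 1 probe set per gene. An intensity trend in the variance or the Gapdh gap as a covariate also gave that call (adjusted p in these runs 0.0113 to 0.0455). Of 29 splicing regulators 12 fell and 4 rose. Hnrnpa1 changed by -1.11 ± 0.12, Srsf2 by -0.85 ± 0.10 and the polypyrimidine tract protein Ptbp1 by -0.83 ± 0.10. Against these Rbfox1 and Mbnl1 (0.80 ± 0.10), regulators of adult muscle splicing, rose. The 4 rises were 2 without day 1 array 1 or day 20 array 1 or 3. Rbm20, the titin splicing regulator that the mutation of the series is known to affect, was not called in its brightest probe set (10.73, 10.63 and 10.90 at day 1, 10.60, 10.31 and 10.89 at day 20, -0.16 ± 0.20). A dimmer probe set changed by -0.46 ± 0.15.

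Chromatin genes fell in 14 of 24 and rose in 1. The maintenance methyltransferase Dnmt1 changed by -1.42 ± 0.13, the histone variant H2az1 by -1.38 ± 0.10, the methyltransferase Smyd2 by -1.05 ± 0.09 and Ezh2 of the Polycomb complex by -0.83 ± 0.18. The mitochondrial deacetylase Sirt3 was the 1 rise at 0.60 ± 0.12, and Hdac2 was not called at -0.13 ± 0.08. Fitted on the 6 compared arrays alone, 2 of these genes rose. Protein degradation and autophagy had 12 rises and 1 fall among 24 genes. Trim54, a ubiquitin ligase of the sarcomere, rose by 1.20 ± 0.14 and the lysosomal protease Ctsd by 0.66 ± 0.09, while Trim63 was not called at 0.08 ± 0.12. Of 20 hypoxia response genes 7 rose and 3 fell, among them Epas1 at 1.32 ± 0.10 and Egln3 at 0.80 ± 0.10. Hif1a was not called at -0.15 ± 0.12, and the falls, Aldoc, Slc2a1 and Pfkfb4 at -1.0, were glycolytic genes.

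Lists of cell type markers differed in their share of calls, and their part in the results above was not tested. Over all genes, by brightest probe set, 14.3% rose and 21.8% fell. Rises stood well above that share for cardiomyocyte (63.6%), fibroblast (58.3%), antigen presentation (58.3%) and smooth muscle and pericyte markers (50%, with 33.3% falling). Falls did so for epicardial markers (57.1%). In the other lists rises were at most 25% and falls at most 27.3%. Of 11 cardiomyocyte markers 7 rose and 1 fell, with summed levels, as log2, of 16.37 to 16.42 at day 1 and 16.72 to 16.77 at day 20. Fibroblast markers rose in 7 of 12 and fell in 3, with summed levels of 14.40 to 14.70 and 14.72 to 14.91. The collagen receptor Ddr2 rose by 1.11 ± 0.13 and dermatopontin Dpt by 1.25 ± 0.12, while Col1a2 changed by -0.79 ± 0.14. Endothelial markers were called in 4 of 14, with Pecam1 at 0.12 ± 0.14 and Vwf at 0.24 ± 0.14, and their summed level went from 13.10 to 13.24 at day 1 to 13.41 to 13.48 at day 20. Smooth muscle and pericyte markers split, with 6 rises, such as the pericyte gene Rgs5 at 1.08 ± 0.14, and 4 falls, led by Cnn1. These were 3 rises without day 20 array 2, and 2 falls without day 20 array 3 or with the Gapdh gap as a covariate. Epicardial markers fell in 4 of 7, among them Aldh1a2 at -0.90 ± 0.15 and Tbx18 at -0.82 ± 0.15, with summed levels of 9.04 to 9.24 and 8.57 to 8.63. The 1 cardiomyocyte fall was 0 without day 1 array 2 and with the Gapdh gap as a covariate, and 1 epicardial marker rose without day 1 array 3.

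Atrial and conduction markers were called in 4 of 11, 1 rise and 3 falls, the falls being Myl4, Gja5 and Nppa, which the fetal ventricle also makes. Their summed level was 14.48 to 14.83 at day 1 and 12.47 to 13.16 at day 20. Myl7, a defining atrial marker, read 11.84, 12.21 and 11.82 at day 1 and 11.09, 9.44 and 10.36 at day 20, and its change of -1.66 ± 0.90 was not called, though it was with the 6 compared arrays fitted alone (adjusted p = 0.00639). The share of atrial tissue in each extract and its part in these values was not tested. The 1 rise was 0 without day 1 array 1 or 3 or day 20 array 3, 2 without day 20 array 1 and 3 without day 1 array 2. Fitted on the 6 compared arrays alone 2 rose and 5 fell.

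Antigen presentation genes had 7 rises and 1 fall among 12. Cd74, the chaperone of class II molecules, went from 7.78, 7.80 and 7.47 to 10.80, 10.81 and 10.80 (3.12 ± 0.15; adjusted p = 3.54e-11). The class II chain RT1-Da rose by 2.20 ± 0.22 and the light chain B2m by 0.99 ± 0.11, and the immunoproteasome subunits Psmb9 and Psmb8 by 1.51 ± 0.20 and 0.89 ± 0.18. At day 49 B2m was at 12.98 ± 0.10 against 11.89 at day 20, and Psmb9 at 8.38 ± 0.42 against 6.92. The 1 fall, RT1-DMa at -0.50, lost its call with a replicate block (adjusted p = 0.0563), with the Gapdh gap as a covariate and without each of the 6 arrays (0.0701 to 0.105). Macrophage markers rose in 3 of 15 and fell in 0, with Lyz2 at 0.63 ± 0.16 and summed levels of 10.41 to 11 at day 1 and 10.91 to 11.15 at day 20, which overlap. Lymphocyte markers rose in 1 of 12, Cd3e lay at 4.52 to 4.87 and was not called, and the 1 rise was 0 without day 1 array 1 or day 20 array 1. Erythroid markers were called in 0 of 9, with Hbb at 0.20 ± 0.18, Alas2 at 0.80 ± 0.47 and Slc4a1 at 1.41 ± 0.54 (adjusted p = 0.0574), and their summed levels overlapped at 13.16 to 13.74 and 13.42 to 13.83. Slc4a1 was called with the 6 compared arrays fitted alone (adjusted p = 0.00311). It was also called with a mean level of at least 6, 1 probe set per gene, an intensity trend in the variance or a replicate block (0.0299 to 0.0443).

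Adipocyte markers rose in 2 of 10 and fell in 1, the fall being the fatty acid synthase Fasn at -1.65 ± 0.13, and the adipocyte hormone Adipoq was not called and lay at 4.08 to 4.43. Skeletal muscle markers rose in 2 of 12, Ckm, which the heart also uses, and Myh1 at 1.16 ± 0.20 in its brightest probe set. A dimmer Myh1 probe set changed by -1.30 ± 0.32, and how far each reads this myosin alone is uncertain. Markers of Schwann cells and neurons rose in 3 of 12 and fell in 2, with Uchl1 at -1.41 ± 0.17. The 3 rises were 1 without day 1 array 1 or 2 or day 20 array 2 or 3. Lung and thymus markers were called in 0 of 5, with summed levels of 6.31 to 6.44 and 6.41 to 6.53.

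**Figure D5:**
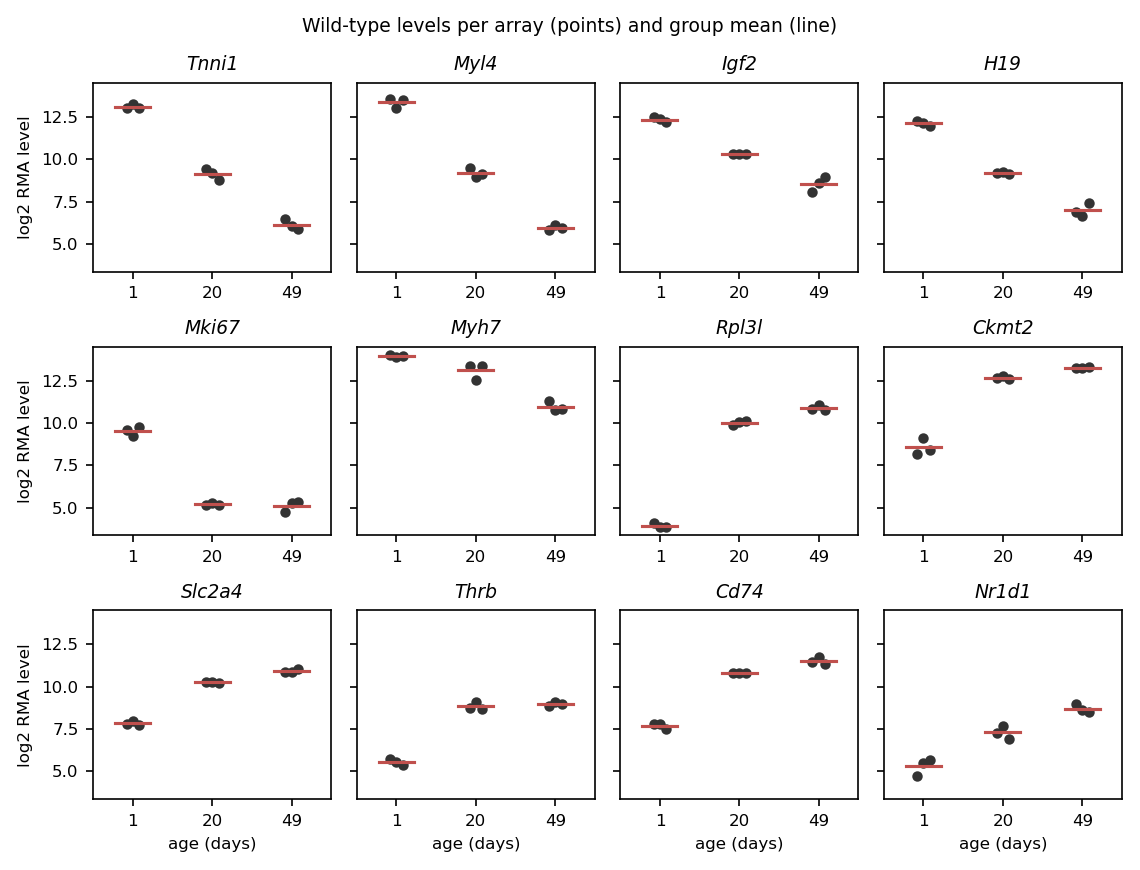
Log2 levels of 12 genes on each wild-type array at day 1, 20 and 49, with points for the 3 arrays of an age and a line for their mean. Tnni1, Myl4, Igf2 and H19 are lower at each later age, Mki67 is low from day 20, and Rpl3l is high from day 20.

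The same age step was measured in the mutant hearts, which are other animals. In them 8764 probe sets changed, of which 3839 rose (12.4%) and 4925 fell (15.9%). Of the 3907 probe sets higher in the wild type 2792 were called higher in the mutant too, which is 71.5% of the wild-type list and 72.7% of the mutant list. Of the 4830 lower ones 3816 were called lower in the mutant, 79% and 77.5% of the lists. Only 1 and 3 were called in the opposite direction. Across all probe sets the changes of the genotypes had a Pearson correlation of 0.923 and a Spearman correlation of 0.824, a description over probe sets that share arrays and normalization. Rpl3l rose by 5.32 ± 0.17 in the mutant and Akr1c15 by 5.23 ± 0.14, and Tnni1, Mki67, H19 and Cd74 changed by -3.47 ± 0.19, -3.32 ± 0.19, -3.31 ± 0.19 and 3.42 ± 0.15.

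A test of the difference between the genotypes' changes called 6 of 31042 probe sets (0.0193%), with 1194 at an unadjusted p below 0.05. The 1194 are a smaller share of all probe sets than the 0.05 that this cut-off passes where nothing differs. Kcnq1, the slow delayed rectifier channel, changed by -0.43 ± 0.10 in wild-type and 0.43 ± 0.10 in mutant hearts, a difference of 0.86 ± 0.14 (adjusted p = 0.0323). With a replicate block that adjusted p was 0.0883. Msrb2, a mitochondrial methionine sulfoxide reductase, changed by -0.50 ± 0.13 and 0.69 ± 0.13, and a dimmer probe set of Dguok, the mitochondrial deoxyguanosine kinase, by -1.26 ± 0.27 and 1.29 ± 0.27. The brightest Dguok probe set rose by 0.63 ± 0.17 in wild-type and 1.40 ± 0.17 in mutant hearts. A probe set of 2310002L09Rikl was at 0.12 ± 0.15 and 3.0 ± 0.15, a difference of 2.88 ± 0.22 (adjusted p = 3.71e-06), which was called under every alternative run that kept that probe set. Ccn2 and Atf3, which fell in the wild type, were at 0.45 ± 0.31 and 0.46 ± 0.32 in the mutant, and neither difference was called (adjusted p = 0.294 and 0.507). The count of 6 rested on single arrays. It was 1 without wild-type day 1 array 1, wild-type day 20 array 2 or mutant day 20 array 2 or 3, 2 without wild-type day 20 array 1 and 3 without mutant day 20 array 1. It was 14 without wild-type day 1 array 2, 16 without mutant day 1 array 1 and 20 without mutant day 1 array 3.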

How the data were processed

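Total RNA from single hearts was labelled and hybridized to Affymetrix Rat 230 2.0 arrays. Per the labels' protocols and the submitters' processing notes, the deposited log2 values are RMA estimates, in which the authors corrected the background of the perfect-match probes and averaged them robustly. RMA compresses differences near background, so changes of dim probe sets are understated. The table held 31099 probe sets, of which 57 controls were left out. Symbols came from the platform annotation: 20826 of the probe sets had 1 symbol, 436 several and 9780 none. The reference tables supplied are of mouse, so they served only for other spellings of symbols, and no sequences or coordinates are given.

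With limma 3.58.1 in R 4.3.3, 1 model with 6 groups was fitted to the 18 arrays (12 residual and 5.77 prior degrees of freedom), and p-values were adjusted by Benjamini-Hochberg over 31042 probe sets, with calls at an adjusted p below 0.05. Errors of changes are the model's SE. In lists and pairs a gene was read by its brightest probe set. The genes named were drawn from the 15 largest rises and falls with no overlap between ages, the pairs and a short set of standard genes. Each list added up to 6 called members per direction and up to 4 not called. Of the 10 genes with the smallest interaction p-values, the 4 that were called and Ccn2 are named. The comparison, the lists and this rule were chosen with earlier results of these data known. In simulated data 68, 66 and 66 probe sets were given log2 changes of 0.5, 1 and 2. Of these 64.7%, 93.9% and 98.5% were recovered, with 6 false calls. Far more probe sets, 8737, were called in the real comparison. The adjustment depends on that share, so neither the recovery nor the number of false calls carries over to it.

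The titles number the replicates. Deviations from the group mean of day 1 and day 20 wild-type arrays with the same number correlated at 0.10, 0.19 and 0.13. As each was over 0.1, a fit with the number as a block was run as an alternative. Of the pairs with different numbers, day 1 array 3 and day 20 array 1 correlated at 0.12 and the others at -0.21 to -0.04. The 0.12 is above the same-number value of 0.10, so these values do not settle whether the numbers pair the samples. Number 2 is the high-Xist array at both ages, and the part of sex in its correlation was not tested. No label says whether arrays of the same number come from 1 litter. Other alternatives were the compared arrays alone, median centring, a level filter, 1 probe set per gene, other variance models and leaving out each array. High against low Xist and the Gapdh gap were each fitted as a covariate. The number of arrays limits the precision.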

Additional observations from a re-analysis of the deposited data

Results flagged for a closer look

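The change from day 1 to day 20 differed between mutant and wild-type hearts, by the interaction term of the model, in 6 probe sets. For Kcnq1 the mutant change minus the wild-type change was 0.86 ± 0.14 on the log2 scale (limma adjusted p = 0.0323). The Kcnq1 call ended under 13 of the alternatives, among them the replicate block (adjusted p = 0.0883). For Msrb2 the difference was 1.19 ± 0.18 (adjusted p = 0.0206), and for the dimmer Dguok probe set it was 2.55 ± 0.38 (adjusted p = 0.0206). The probe sets of 2310002L09Rikl differed by 2.88 ± 0.22 (adjusted p = 3.71e-06) and 1.51 ± 0.22 (adjusted p = 0.0206). A probe set with no gene symbol differed by 1.51 ± 0.21 (adjusted p = 0.0166). The first 2310002L09Rikl probe set kept its call under each alternative that tested it, with differences from 2.71 to 3.0, and each of the other 5 lost its call when some single array was left out.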

How the results depend on the processing

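Of 331 named probe sets 292 were called, 253 of them under every alternative that tested them and 254 whichever array was left out. Most were named because they were called with large changes, so these counts do not describe the other probe sets. Of all probe sets 28.1% were called. The 331 leave out probe sets named only for the difference between genotypes. With 1 probe set per gene, which tests fewer probe sets, 5437 were called (2185 higher; 389 and 611 by 2-fold, higher and lower), with 5360 in the mutant (2084 higher, 3276 lower) and 3 for the difference between genotypes. With a mean level of at least 6, 559 fell by 2-fold. The compared arrays alone gave 8772 calls in the wild type, 6959 in the mutant and 2 for the difference between genotypes. With the Gapdh gap as a covariate, 7625 were called in the wild type (3326 higher, 4299 lower), against 8737 in the main fit. In the mutant that covariate gave 6015 (2463 higher, 3552 lower), against 8764. The cause of these last changes was not tested. The replicate block gave 8754 calls (3940 higher, 4814 lower), 8861 in the mutant and 6 for the difference. It also ended the calls of Sox10 (0.40, adjusted p = 0.0523) and Abcc9 (0.33, 0.0519), and among the other named genes it changed those of Kcnq1 (the difference between genotypes), Kcne1, Cry1, RT1-DMa, Tyms and Slc4a1. Leaving out each array in turn gave 6811 to 7849 calls (3011 to 3468 higher, 3800 to 4400 lower; 709 to 773 and 900 to 1014 by 2-fold), 7108 to 8626 in the mutant (3087 to 3808 higher, 4021 to 4818 lower) and 1 to 20 for the difference. Changes near 0 that turned sign, none of them called, ran over the arrays left out from -0.017 to 0.198 for Ldha (lowest without day 1 array 1), -0.104 to 0.246 for Ankrd1 (day 1 array 1), -0.057 to 0.285 for Cpt1b (day 1 array 2), -0.013 to 0.214 for Pecam1 (day 20 array 2), -0.172 to 0.0004 for Gja1 (highest without day 20 array 3) and -0.086 to 0.019 for Myl2 (highest without day 1 array 3). With the Gapdh covariate Cpt1b stood at -0.037.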

Other observations

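Some genes had probe sets that were called in opposite directions between day 1 and day 20. Of 840 genes with several called probe sets, 77 did so, and 2 of these, chosen after their values were seen, changed by 2-fold or more both ways. Pdlim5, a Z-disc protein, had a probe set that went from 9.84, 10.33 and 9.95 to 11.22, 11.16 and 11.26, a rise of 1.18 ± 0.12. Another went from 8.87, 9.48 and 8.88 to 7.13, 7.34 and 7.14, a change of -1.87 ± 0.13. In the mutant hearts the changes of these Pdlim5 probe sets were 1.29 and -2.60. Myh1, a skeletal myosin heavy chain, had changes of 1.16 ± 0.21 and -1.30 ± 0.32, and in the mutant hearts smaller ones of 0.44 and -0.35. Which transcripts each probe set reads was not tested.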
